A study of Arabidopsis thaliana with 9 samples.

Results

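The data below describe 10 genes of the root hair programme of Arabidopsis thaliana in root RNA of 3 genotypes, chosen by gene identifier among the 24140 genes listed in at least 1 library. They comprise GL2, which marks cells that form no hair, 4 transcription factors of the basic helix-loop-helix (bHLH) family that start and drive hair growth (RHD6, RSL1, RSL2 and RSL4), the lipid transfer protein COW1, and 4 proteins of the hair cell wall (PRP1, PRP3, LRX1 and XTH26). RNA came from roots of seedlings 9 days old, grown on 1/2 MS medium, with 3 libraries per genotype. The first genotype, 35S:ERF13:MYC, expresses the transcription factor ERF13 with a MYC tag from the 35S promoter, which is active in most plant cells. The second is titled erf13-3, but under genotype the labels give ERF13 SRDX and the header of its deposited comparison table reads E13SRDX, while the series text gives its name as erf3-3; SRDX is a short domain that makes a transcription factor fused to it a repressor. The third is the wild type (WT). The labels do not say how many independent transformants stand behind a line or whether each library had plants of its own, so the p-values below measure only how far the libraries of a genotype scatter, and that scatter may be technical.

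Hairs of the Arabidopsis root grow from files of epidermal cells that lie over the junctions between cortical cells. In the other files a complex that contains the MYB protein WER switches on GL2, and GL2 keeps the hair genes off. In hair files RHD6 and RSL1 start the hair and raise RSL2 and RSL4, which set how long the tip grows, and the wall proteins are delivered to the growing tip. Whole roots were sequenced, so fewer hair cells and less RNA per hair cell cannot be told apart in any value below.

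Each library held 12147128 to 12324144 expected counts in all, and 19714 genes had enough counts to be tested, among them all 10 root hair genes. ERF13 itself, AT2G44840, had 905, 789 and 773 FPKM (fragments counted per transcript length and sequencing depth) in the 35S:ERF13:MYC libraries, 2595, 2711 and 3043 FPKM in the erf13-3 libraries and 1.03, 0.96 and 1.25 FPKM in the WT libraries. Libraries labelled erf13-3 therefore held more ERF13 transcript than those of the overexpressing line, and the name says nothing here about loss of the gene. A gene was called higher or lower at a Benjamini-Hochberg adjusted p under 0.05 in edgeR's quasi-likelihood test, and a log2 fold change puts the first-named group over the second. Against WT, 2713 genes were called higher and 3496 lower in 35S:ERF13:MYC roots, and 2689 higher and 2692 lower in erf13-3 roots. With limma on log2(FPKM + 1), which has no trimmed-mean scaling, those splits were 4076 higher and 2618 lower, and 4670 higher and 1852 lower, and the median gene lay at 0.11 and 0.13 on the log2 scale. Endodermis, root cap and vascular markers were above 0 in every library. Summed over 12 photosynthetic genes as shoot markers, FPKM ran from 106 to 199 in 35S:ERF13:MYC, from 692 to 799 in erf13-3 and from 293 to 346 in WT libraries, with 9 of the 12 above 0 in every library and RBCS1B, RBCS2B and LHCB1.1 at 0 in 1 library each. The 6 endodermis markers summed to 367 to 383, 839 to 973 and 581 to 762 FPKM in 35S:ERF13:MYC, erf13-3 and WT libraries. Of the shoot markers 7 were called lower in 35S:ERF13:MYC and 9 higher in erf13-3 against WT, and of the endodermis markers 6 lower and 3 higher. Both sums stood in the same order as the hair wall genes below, but those of root cap and vascular markers did not. In 35S:ERF13:MYC, erf13-3 and WT libraries the 3 root cap markers summed to 12.3 to 19.4, 7.98 to 11.9 and 10.2 to 14.5 FPKM. The 5 vascular markers summed to 108 to 109, 107 to 112 and 114 to 130 FPKM. Against WT, 2 root cap and 4 vascular markers were called lower in erf13-3. In 35S:ERF13:MYC 1 root cap marker was called higher and 2 vascular markers lower. The part of any of these markers in the results below was not tested.

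In 35S:ERF13:MYC roots RSL2 and RSL4, which drive hair growth, and the wall genes PRP1, PRP3 and XTH26 were lower than in WT. These are 5 of the 10 genes, and none rose, against a background of 31.5% of all genes tested called in either direction, 13.8% higher and 17.7% lower. In erf13-3 roots RSL4, COW1 and XTH26 rose and RSL2 fell, 4 of the 10, where 27.3% of all genes tested were called, 13.6% higher and 13.7% lower. With the replicate number as a block in the fit, PRP1 and PRP3 were called higher there as well. That made 6 of the 10, where 5494 of 19714 genes tested were called. Set against each other, 7 of the 10 differed, with RSL4, COW1, PRP1, PRP3, LRX1 and XTH26 higher and RSL2 lower in erf13-3 than in 35S:ERF13:MYC roots, against 38.7% of all genes tested, 21.1% higher and 17.6% lower. The median log2 fold change of the 10 genes was -0.48 for 35S:ERF13:MYC over WT, 0.34 for erf13-3 over WT and 0.70 for erf13-3 over 35S:ERF13:MYC, where the median of all genes tested was 0.02, 0.02 and -0.02. GL2, RHD6 and RSL1, the genes that act before the hair appears, were not called in any of the 3 comparisons.

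**Figure D1:**
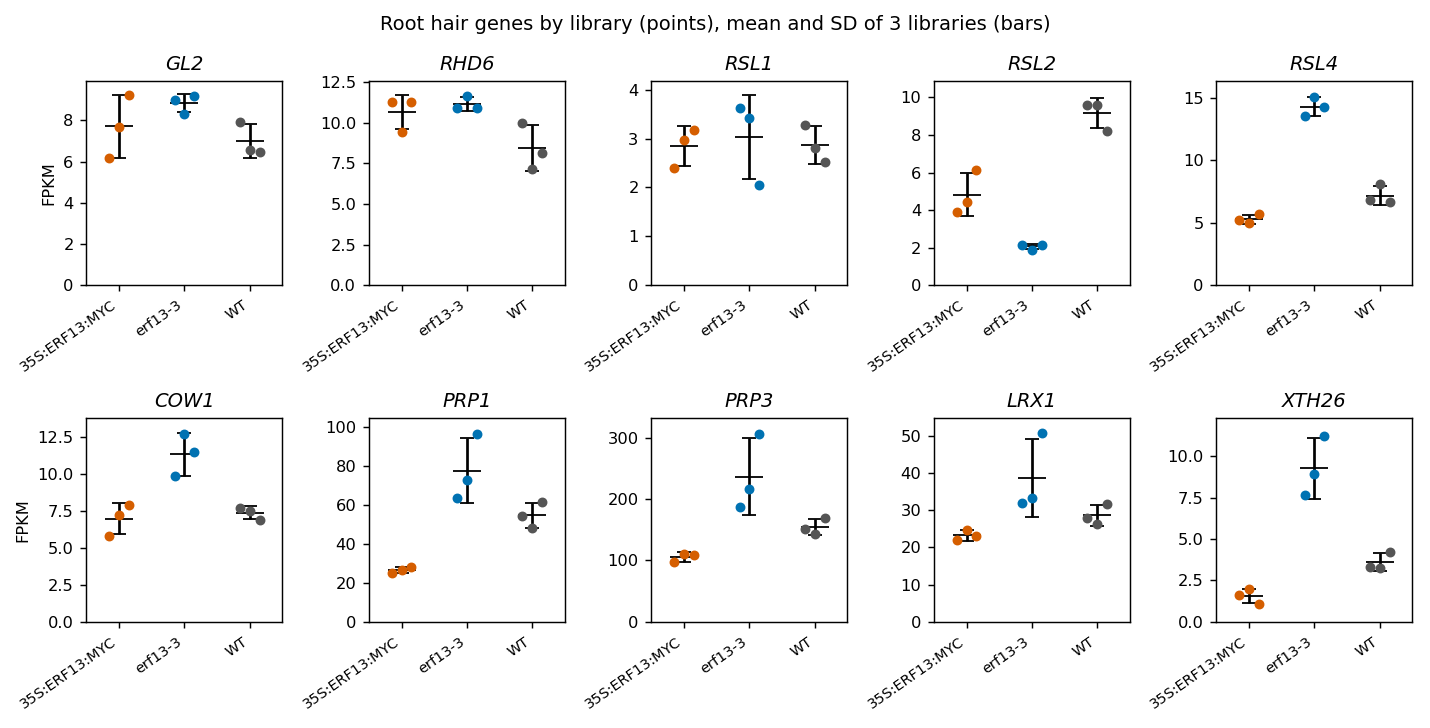
Level of each root hair gene in FPKM (vertical axes, from 0) in 35S:ERF13:MYC, erf13-3 and WT roots. Points are the 3 libraries of a genotype, and bars give their mean and SD. In erf13-3 RSL2 lies at 2.15 FPKM or below, under every WT library, and RSL1 overlaps WT. All erf13-3 libraries of the other 8 genes are above every WT library, GL2, PRP1 and LRX1 by little. Of those 8 genes only RSL4, COW1 and XTH26 were called higher. In unscaled FPKM, 6382 of the 19714 genes tested lay wholly above WT in erf13-3, and 2381 wholly below.

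GL2 (AT1G79840, chr1:30036956-30041440 in TAIR10.1) encodes a homeodomain protein that represses hair genes in non-hair cells. It had 6.19, 7.69 and 9.24 FPKM in 35S:ERF13:MYC, 8.99, 8.33 and 9.18 FPKM in erf13-3, and 7.92, 6.58 and 6.47 FPKM in WT libraries. The 35S:ERF13:MYC and WT libraries overlapped, and the 3 erf13-3 libraries lay above all WT libraries by little. Its log2 fold change was -0.03 (SE 0.12, edgeR adjusted p = 0.88) for 35S:ERF13:MYC over WT and 0.17 (SE 0.12, edgeR adjusted p = 0.32) for erf13-3 over WT. Part of the spread in FPKM comes with the transcript length that the authors' files assign to it, which varied from 2241 to 2581 bases among the 35S:ERF13:MYC libraries.

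RHD6 (AT1G66470, chr1:24795214-24797015) and RSL1 (AT5G37800, chr5:15036066-15037884) are close relatives that act together to begin hair formation. RHD6 had 11.3, 9.43 and 11.3 FPKM in 35S:ERF13:MYC, 10.9, 11.7 and 10.9 FPKM in erf13-3, and 9.97, 7.18 and 8.11 FPKM in WT libraries. Both lines were centred above WT, but a 35S:ERF13:MYC library lay inside the WT range, and neither log2 fold change, 0.23 (SE 0.13, edgeR adjusted p = 0.18) in 35S:ERF13:MYC and 0.27 (SE 0.13, edgeR adjusted p = 0.14) in erf13-3, passed the test. RSL1 was scarce, at 2.39, 2.96 and 3.18 FPKM in 35S:ERF13:MYC, 3.62, 3.42 and 2.05 FPKM in erf13-3, and 3.28, 2.80 and 2.51 FPKM in WT libraries. All 3 genotypes overlapped for RSL1, with 34 to 60 counts per library. Its SE was 0.21 on the log2 scale, so changes of that size, and moderately larger ones, could go uncalled. How reads shared by such near relatives were assigned is not given in the sources used here, and this holds for RSL2 and RSL4 and for PRP1 and PRP3 as well.

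RSL2 and RSL4, the bHLH proteins that act after RHD6, moved together in 35S:ERF13:MYC roots and apart in erf13-3 roots. RSL2 (AT4G33880, chr4:16239363-16241169) had 3.91, 4.43 and 6.11 FPKM in 35S:ERF13:MYC, 2.15, 1.90 and 2.15 FPKM in erf13-3, and 9.61, 9.61 and 8.22 FPKM in WT libraries. No genotypes overlapped: every 35S:ERF13:MYC library was below WT, and every erf13-3 library was lower still. The log2 fold change was -1.04 (SE 0.16, edgeR adjusted p = 0.00041) for 35S:ERF13:MYC over WT and -2.28 (SE 0.17, edgeR adjusted p = 2.2e-06) for erf13-3 over WT, which puts RSL2 2.05-fold and 4.84-fold lower than in WT. Between the lines it was -1.24 (SE 0.19, edgeR adjusted p = 2e-04), with 32 to 36 counts per erf13-3 library.

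RSL4 (AT1G27740, chr1:9654475-9656089), the factor whose amount is known to scale with final hair length, had 5.19, 5.0 and 5.69 FPKM in 35S:ERF13:MYC, 13.6, 15.1 and 14.2 FPKM in erf13-3, and 6.81, 8.09 and 6.65 FPKM in WT libraries. Here too the genotypes did not overlap, but erf13-3 was the highest and 35S:ERF13:MYC the lowest. RSL4 fell by 0.55 on the log2 scale in 35S:ERF13:MYC (SE 0.12, edgeR adjusted p = 0.0057) and was 1.81-fold higher in erf13-3 than in WT (log2 fold change 0.86, SE 0.11, edgeR adjusted p = 0.00014). Between erf13-3 and 35S:ERF13:MYC the log2 fold change was 1.41 (SE 0.12, edgeR adjusted p = 1.7e-06).

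The ratio of RSL4 to RSL2 in FPKM, taken within each library, was 1.33, 1.13 and 0.931 in 35S:ERF13:MYC, 6.30, 7.93 and 6.62 in erf13-3 and 0.709, 0.842 and 0.809 in WT. It averaged 1.13 ± 0.198 in 35S:ERF13:MYC, 6.95 ± 0.863 in erf13-3 and 0.786 ± 0.0694 in WT roots (SD, n = 3 each), and no library of one genotype lay within the range of another. The sum of the pair was 16.4 ± 0.636 FPKM in erf13-3 and 16.3 ± 1.42 FPKM in WT roots (SD, n = 3 each), and the libraries of these genotypes overlapped in it. In 35S:ERF13:MYC roots the sum was 10.11 ± 1.47 FPKM (SD, n = 3), below every WT library.

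**Figure D2:**
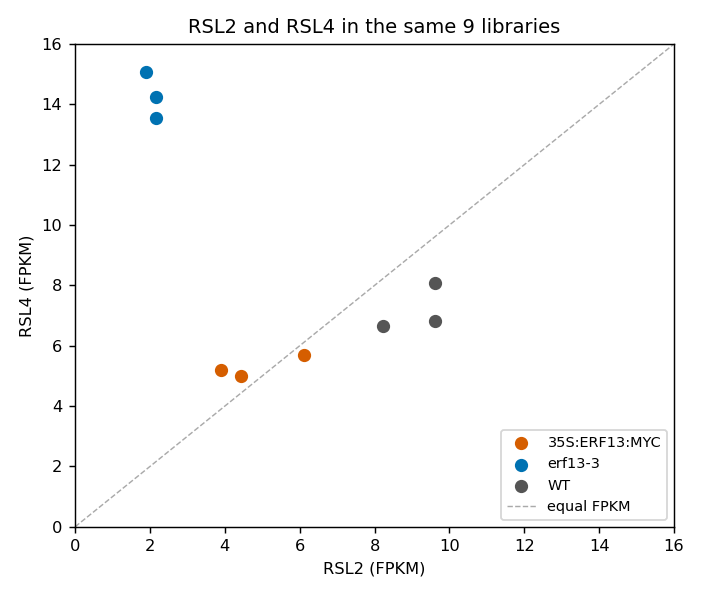
RSL2 (horizontal axis, FPKM) and RSL4 (vertical axis, FPKM) in the same 9 libraries, with 1 point per library and a dashed line where both are equal. The 3 erf13-3 libraries lie far above the line, the 3 WT libraries below it and the 3 35S:ERF13:MYC libraries near it at lower values of both.

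COW1 (AT4G34580, chr4:16515102-16518746) encodes a phosphatidylinositol transfer protein needed at the hair tip. It had 5.83, 7.21 and 7.90 FPKM in 35S:ERF13:MYC, 9.85, 12.8 and 11.5 FPKM in erf13-3, and 7.74, 7.53 and 6.92 FPKM in WT libraries. The erf13-3 libraries were above all others, and the 35S:ERF13:MYC libraries enclosed the WT range. COW1 rose in erf13-3 over WT by 0.48 on the log2 scale (SE 0.13, edgeR adjusted p = 0.014) and was not called in 35S:ERF13:MYC (-0.19, SE 0.13, edgeR adjusted p = 0.29). Without erf13-3 replicate 2 the rise over WT was 0.41 and lost its call (edgeR adjusted p = 0.062).

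Of the 4 wall genes, PRP1, PRP3 and LRX1 were the most abundant of the 10 genes in every genotype, while XTH26 was scarce. PRP1 and PRP3 encode proline-rich proteins of the hair wall, LRX1 a leucine-rich repeat extensin whose loss deforms hairs, and XTH26 an enzyme that cuts and rejoins xyloglucan. In the 250 bases before their annotated starts, PRP1 (chr1:20504651-20504900), PRP3 (chr3:23182472-23182721) and LRX1 (chr1:4069742-4069991) each hold the root hair element, a promoter motif known from hair-specific genes and bound by bHLH proteins of the RSL group. These windows are shown because the motif, in capitals, was found in these 3 genes and in none of the other 7 windows. The sequences are from RefSeq TAIR10.1 and read 5′ to 3′ on the strand of the gene, here the plus strand, and the motif lies on the complementary strand in all of them.
PRP1: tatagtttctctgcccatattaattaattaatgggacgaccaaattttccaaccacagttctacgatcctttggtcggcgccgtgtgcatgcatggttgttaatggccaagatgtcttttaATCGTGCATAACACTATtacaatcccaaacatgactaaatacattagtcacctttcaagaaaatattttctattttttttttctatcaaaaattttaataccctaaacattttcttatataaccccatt
PRP3: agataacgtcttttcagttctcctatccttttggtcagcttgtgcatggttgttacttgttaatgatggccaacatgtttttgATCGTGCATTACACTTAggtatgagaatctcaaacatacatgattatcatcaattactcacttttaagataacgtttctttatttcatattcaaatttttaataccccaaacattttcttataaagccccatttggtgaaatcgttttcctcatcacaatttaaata
LRX1: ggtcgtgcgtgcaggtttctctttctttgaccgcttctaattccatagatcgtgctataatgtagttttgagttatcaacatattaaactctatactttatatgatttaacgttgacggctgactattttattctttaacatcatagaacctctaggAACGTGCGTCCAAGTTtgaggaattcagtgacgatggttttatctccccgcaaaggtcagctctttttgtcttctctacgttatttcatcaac

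The element began 129 bases before the start in PRP1, 167 in PRP3 and 93 in LRX1. It was found, on either strand, in 0.754% of the 27443 windows of this length before protein-coding genes, 207 in all. Because the element is known from hair-specific genes, its share among hair genes is not independent of how it was defined. PRP1 and PRP3 also shared a run of 15 identical bases, aaacattttcttata, nearer to the start. RHD6 and RSL1 shared a run as long, tatataaacctttat, and in the other 43 of the 45 pairs of members the longest shared run was 7 to 14 bases, with a median of 8. Of the other motifs searched, GCCGCC, the core of the box bound by factors of the ERF family, was in none of the 10 windows and in 1.87% of all windows. CACGTG was in none of the 10 and in 6.49% of all, and CANNTG, which includes CACGTG and is the general site of bHLH proteins, was in 6 of the 10 and in 55.3% of all. A match is a description of these letters only.

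PRP1 (AT1G54970, chr1:20504901-20506504) had 25.1, 26.6 and 28.4 FPKM in 35S:ERF13:MYC, 63.8, 72.9 and 96.3 FPKM in erf13-3, and 54.4, 48.5 and 61.4 FPKM in WT libraries. Each 35S:ERF13:MYC library was far below the lowest WT library, while the erf13-3 libraries began just above the highest WT library. The fall in 35S:ERF13:MYC was -1.16 on the log2 scale (SE 0.17, edgeR adjusted p = 0.00031), a 2.23-fold lower level. For erf13-3 over WT the value of 0.37 (SE 0.16, edgeR adjusted p = 0.11) did not pass the test, while with the replicate number as a block it was 0.36 and passed (edgeR adjusted p = 0.026).

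PRP3 (AT3G62680, chr3:23182722-23184042) was the most abundant of the 10 genes in every genotype, at 96.8, 111 and 109 FPKM in 35S:ERF13:MYC, 187, 217 and 306 FPKM in erf13-3, and 151, 143 and 169 FPKM in WT libraries. The order of the genotypes was that of PRP1, again with no overlap. PRP3 fell in 35S:ERF13:MYC by 0.67 on the log2 scale (SE 0.17, edgeR adjusted p = 0.013), and its value for erf13-3 over WT was 0.48 (SE 0.17, edgeR adjusted p = 0.057), or 0.46 and called higher with the replicate block (edgeR adjusted p = 0.016). PRP3 fell less than PRP1 in 35S:ERF13:MYC, as the ratio of PRP3 to PRP1 in FPKM shows: it was 3.96 ± 0.176 in 35S:ERF13:MYC, 3.03 ± 0.134 in erf13-3 and 2.83 ± 0.113 in WT roots (SD, n = 3 each). The ratios in 35S:ERF13:MYC libraries, from 3.86 to 4.16, were above those of all other libraries.

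LRX1 (AT1G12040, chr1:4069992-4072681) had 21.9, 24.8 and 23.1 FPKM in 35S:ERF13:MYC, 31.8, 33.3 and 50.8 FPKM in erf13-3, and 28.0, 26.2 and 31.6 FPKM in WT libraries. The 3 genotypes stood in the same order as for PRP1, with narrow gaps and a single erf13-3 library far above the others. Neither line was called against WT, at -0.41 (SE 0.18, edgeR adjusted p = 0.10) for 35S:ERF13:MYC and 0.30 (SE 0.18, edgeR adjusted p = 0.24) for erf13-3, whereas erf13-3 was higher than 35S:ERF13:MYC by 0.72 (SE 0.18, edgeR adjusted p = 0.0072). Without erf13-3 replicate 3 the value for 35S:ERF13:MYC over WT was called lower, at -0.41 (edgeR adjusted p = 0.0091).

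XTH26 (AT4G28850, chr4:14244290-14246037) had 1.60, 1.97 and 1.11 FPKM in 35S:ERF13:MYC, 7.63, 8.91 and 11.2 FPKM in erf13-3, and 3.32, 3.25 and 4.23 FPKM in WT libraries. It spanned the widest range of the 10 genes between the lines, and no genotypes overlapped. XTH26 fell by 1.32 on the log2 scale in 35S:ERF13:MYC (SE 0.27, edgeR adjusted p = 0.0037), on 16 to 28 counts per library, and rose by 1.23 in erf13-3 over WT (SE 0.22, edgeR adjusted p = 0.0012). Between erf13-3 and 35S:ERF13:MYC the difference was 2.54 (SE 0.25, edgeR adjusted p = 6.3e-06), or 5.83-fold. For PRP1 and PRP3 that difference was 1.53 (SE 0.17, edgeR adjusted p = 1.6e-05) and 1.15 (SE 0.18, edgeR adjusted p = 0.00023).

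**Figure D3:**
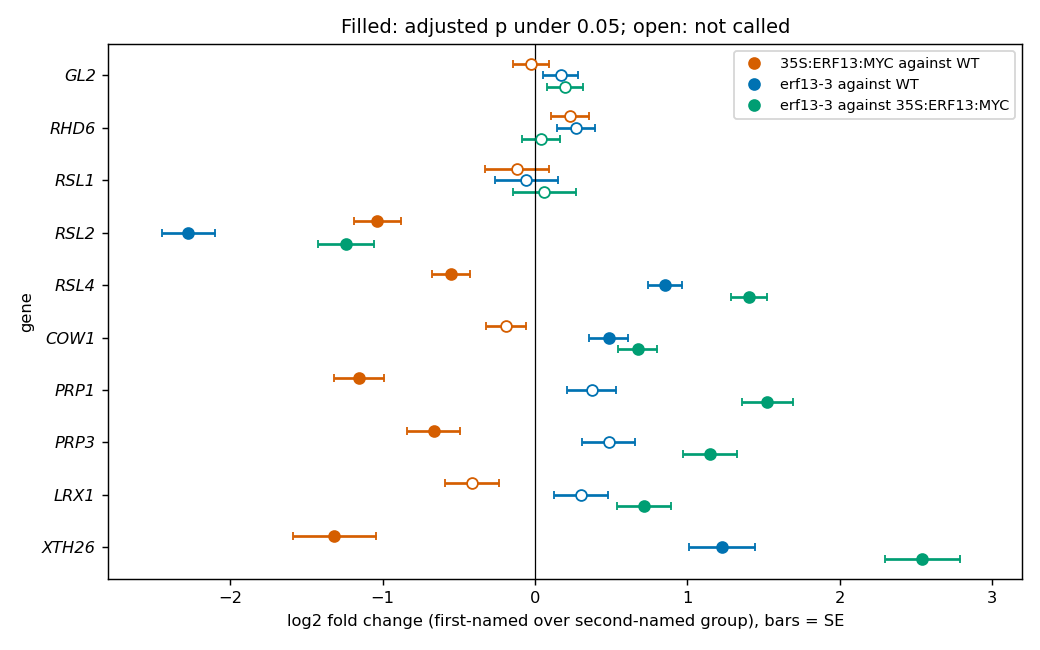
Log2 fold change (horizontal axis) of each root hair gene in the 3 comparisons, with SE as bars; filled points have an adjusted p under 0.05. RSL2 lies left of 0 in all comparisons, and XTH26 spans from -1.32 in 35S:ERF13:MYC over WT to 2.54 in erf13-3 over 35S:ERF13:MYC.

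Among the erf13-3 and among the WT libraries the wall genes also stood together, on a log2 CPM scale after TMM scaling, and among the 35S:ERF13:MYC libraries they did not. Replicate 3 of erf13-3 was the highest of its genotype for PRP1, PRP3, LRX1 and XTH26, all 4, and for 26 of 28 further wall genes of the hair, whereas it was highest for 45.0% of all genes. Its median log2 difference from the other 2 erf13-3 libraries was 0.65 over those 4 genes and 0.04 over all genes. Replicate 3 of WT was likewise highest for all 4, for 27 of the 28 and for 43.2% of all genes, with a median difference of 0.36 over the 4 genes and 0.03 over all genes. In 35S:ERF13:MYC, replicate 2 was highest for 3 of the 4 but for 10 of the 28, and replicate 1 for 0 of the 4 and 14 of the 28. Replicate 3 of WT held 1231 FPKM of 14 phosphate starvation genes in sum, against 496 and 513 FPKM in the other WT libraries, 290 to 377 FPKM in 35S:ERF13:MYC and 583 to 714 FPKM in erf13-3 libraries, with PHT1;8 and PEPC1 at 0 in some 35S:ERF13:MYC libraries. Its part in the spread of the wall genes was not tested. With both libraries left out, 6 genes were called lower in 35S:ERF13:MYC (LRX1 besides the 5, edgeR adjusted p = 0.0057), where 3672 of 19825 genes tested were. In erf13-3 against WT 5 were then called higher and 1 lower, where 2754 and 2850 of all genes tested were. PRP1 at 0.28 (edgeR adjusted p = 0.032) and PRP3 at 0.32 (edgeR adjusted p = 0.014) were called higher besides the others. Between the lines 7 were called, where 7002 to 8272 of all genes were over the alternatives other than leaving out a single library. Leaving out both libraries was chosen after seeing the data.

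The order of the levels, which FPKM puts on a scale per transcript length, changed below the first 3 ranks. In every genotype PRP3 stood first, PRP1 next and LRX1 after it, with no overlap of their ranges. In 35S:ERF13:MYC roots RHD6 came next at 10.7 ± 1.07 FPKM, then GL2 and COW1, whose ranges overlapped, RSL4 and RSL2, which overlapped too, RSL1, and XTH26 last at 1.56 ± 0.431 FPKM (SD, n = 3 each). In erf13-3 roots RSL4 came next at 14.3 ± 0.761 FPKM, followed by COW1, RHD6, XTH26 and GL2, each overlapping the next, and by RSL1 and RSL2, which overlapped, with RSL2 last at 2.07 ± 0.144 FPKM (SD, n = 3 each). In WT roots RSL2, RHD6, COW1, RSL4 and GL2 followed, each overlapping the next, from 9.15 ± 0.803 FPKM for RSL2 to 6.99 ± 0.807 FPKM for GL2, and then XTH26 at 3.60 ± 0.547 FPKM and RSL1 at 2.86 ± 0.389 FPKM (SD, n = 3 each), which overlapped. RSL2 thus ranked 8 of 10 in 35S:ERF13:MYC roots, last in erf13-3 roots and 4 of 10 in WT roots, while XTH26 ranked last in 35S:ERF13:MYC roots, 7 of 10 in erf13-3 roots and 9 of 10 in WT roots.

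Of 16 other genes of epidermal patterning, 2 were called higher and 2 lower in 35S:ERF13:MYC roots, and 8 higher and 1 lower in erf13-3 roots, with medians of 0.08 and 0.34 on the log2 scale. In 35S:ERF13:MYC these shares, 12.5% in each direction, stand beside 13.8% and 17.7% of all genes, and in erf13-3 shares of 50.0% and 6.25% stand beside 13.6% and 13.7%. ZFP5, a zinc finger protein that promotes hair formation and acts through CPC, had 19.2, 18.7 and 20.1 FPKM in 35S:ERF13:MYC, 2.73, 2.71 and 3.00 FPKM in erf13-3, and 11.1, 11.8 and 13.2 FPKM in WT libraries. It went opposite ways in the lines, higher by 0.56 (SE 0.11, edgeR adjusted p = 0.0024) in 35S:ERF13:MYC and lower by a log2 fold change of -2.24 (SE 0.13, edgeR adjusted p = 3.9e-07) in erf13-3. WER, the MYB protein upstream of GL2, rose in erf13-3 by 0.84 (SE 0.14, edgeR adjusted p = 0.00095), and its libraries there, at 11.3 to 12.1 FPKM, were above the WT libraries at 5.09 to 7.71 FPKM. TRY, an inhibitor that moves between cells, rose in erf13-3 by 2.41 (SE 0.44, edgeR adjusted p = 0.0015) on 11 to 20 counts per library against 2 to 4 in WT. The others called higher there were MYC1, EGL3 and GL3, partners of WER, the mobile inhibitors CPC and CPL3, and JKD; CPL3 lost its call with the replicate block (edgeR adjusted p = 0.057). The zinc finger gene AT1G68360 rose in 35S:ERF13:MYC roots by 0.82 (SE 0.21, edgeR adjusted p = 0.012), and SCM, the receptor kinase that reads cell position, fell by 0.43 (SE 0.10, edgeR adjusted p = 0.0074). TTG1, part of the WER complex, was the other gene called lower.

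Among 12 other transcription factors of hair growth that were tested of 13 listed, 1 was higher and 4 were lower in 35S:ERF13:MYC roots, and 4 were higher and 3 lower in erf13-3 roots. That is 8.33% higher and 33.3% lower in 35S:ERF13:MYC, where 13.8% and 17.7% of all genes were, and 33.3% higher and 25.0% lower in erf13-3, where 13.6% and 13.7% were. LRL3, a bHLH protein that acts with the RSL factors in hair growth, had 10.01, 10.06 and 11.8 FPKM in 35S:ERF13:MYC, 27.7, 31.5 and 38.2 FPKM in erf13-3, and 22.03, 22.7 and 24.7 FPKM in WT libraries. It fell by 1.24 on the log2 scale in 35S:ERF13:MYC (SE 0.15, edgeR adjusted p = 7.4e-05), and its relative LRL1 fell by 0.65 (SE 0.09, edgeR adjusted p = 0.00029). The bHLH gene AT2G14760 was nearly absent from erf13-3 roots, with 1 count over its 3 libraries against 57 in WT, a ratio of 56.4 with an exact 95% interval of 9.73 to 2268 that covers counting error only. It had 1.26, 1.43 and 1.41 FPKM in 35S:ERF13:MYC libraries and in WT libraries 1.5, 1.41 and 1.41 FPKM. OBP4, a Dof protein that holds back hair growth, was lower in both lines, by 0.43 in 35S:ERF13:MYC (SE 0.11, edgeR adjusted p = 0.012) and by a log2 fold change of -0.61 in erf13-3 (SE 0.11, edgeR adjusted p = 0.0014). The auxin response factor ARF7 was lower in erf13-3 as well (-0.61, SE 0.07, edgeR adjusted p = 4.9e-05). EIL1, a factor of ethylene signalling, was the remaining gene called lower in 35S:ERF13:MYC. HDG11, a relative of GL2, was the one called higher, on 19 to 29 counts per library against 11 to 13 in WT. No gene of this list was called higher there with DESeq2. The same held without WT replicate 2 or 3 and without 35S:ERF13:MYC replicate 2 or 3. HDG11, AT1G76880, LRL2 and GTL1, which ends hair growth, were those called higher in erf13-3. The list's medians were -0.10 and 0.09, and its genes lay on both sides of 0 in both lines.

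Of 24 genes of tip growth signalling and trafficking, 9 fell and none rose in 35S:ERF13:MYC roots, and 6 rose and none fell in erf13-3 roots. The share that fell in 35S:ERF13:MYC was 37.5%, where 17.7% of all genes did, and the share that rose in erf13-3 was 25.0%, where 13.6% did. With the replicate block RHD3, a protein that shapes the endoplasmic reticulum, was called lower in erf13-3 (-0.31, edgeR adjusted p = 0.034). AHA7, a proton pump of the hair plasma membrane, had 7.15, 8.02 and 8.26 FPKM in 35S:ERF13:MYC, 22.6, 25.5 and 29.4 FPKM in erf13-3, and 10.09, 12.3 and 11.7 FPKM in WT libraries. It fell in 35S:ERF13:MYC (-0.66, SE 0.13, edgeR adjusted p = 0.0031) and rose in erf13-3 (1.04, SE 0.13, edgeR adjusted p = 8.6e-05). The calcium channel CNGC9 fell in 35S:ERF13:MYC by 0.65 (SE 0.14, edgeR adjusted p = 0.0049) and SCN1, which keeps growth to a single tip, by 0.28 (SE 0.07, edgeR adjusted p = 0.012). The kinase OXI1 rose in erf13-3 by 0.70 (SE 0.09, edgeR adjusted p = 0.00014) and RBOHC, the oxidase that makes reactive oxygen at the tip, by 0.43 (SE 0.10, edgeR adjusted p = 0.0068). Beyond these, 15 of the 24 genes in 35S:ERF13:MYC and 18 in erf13-3 were not called, and the list's medians were -0.24 and 0.15.

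Of 28 further wall and secreted proteins of hairs that were tested, of 29 listed, 15 fell (53.6%, where 17.7% of all genes did) and none rose in 35S:ERF13:MYC roots (median -0.49). In erf13-3 roots 12 rose (42.9%, where 13.6% of all genes did) and 3 fell (10.7%, where 13.7% did; median 0.29), and 20 were higher and 3 lower in erf13-3 than in 35S:ERF13:MYC (median 0.79), where 21.1% and 17.6% of all genes were. XTH14, an enzyme of the XTH26 family, fell by 0.93 on the log2 scale in 35S:ERF13:MYC (SE 0.18, edgeR adjusted p = 0.0026), and XUT1, a glycosyltransferase that adds galacturonic acid to xyloglucan of root hairs, fell by 0.75 (SE 0.13, edgeR adjusted p = 0.0011). RHS13 had 56.4, 51.2 and 50.3 FPKM in 35S:ERF13:MYC, 138, 157 and 204 FPKM in erf13-3, and 55.4, 50.4 and 59.2 FPKM in WT libraries, and rose in erf13-3 by 1.47 (SE 0.15, edgeR adjusted p = 2.4e-05). The extensin EXT3, which cross-links the wall in many cell types, had 3857, 4306 and 3652 FPKM in 35S:ERF13:MYC, 1816, 1822 and 2650 FPKM in erf13-3, and 6680, 6525 and 8611 FPKM in WT libraries. Like RSL2 it was lower in both lines and lowest in erf13-3, at -1.005 (SE 0.19, edgeR adjusted p = 0.0021) in 35S:ERF13:MYC and -1.93 (SE 0.20, edgeR adjusted p = 2e-05) in erf13-3. SHV3, a membrane-anchored protein with a glycerophosphodiesterase-like domain, was lower in erf13-3 too (-1.49, SE 0.14, edgeR adjusted p = 1.4e-05). Its 35S:ERF13:MYC libraries, at 46.3 to 46.7 FPKM, also lay below the WT libraries at 54.1 to 65.9 FPKM. Leaving out each library in turn gave SHV3 -0.59 to -0.40 in 35S:ERF13:MYC over WT (edgeR adjusted p 0.0026 to 0.063). The remaining gene called lower in erf13-3 was the expansin EXPA17.

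**Figure D4:**
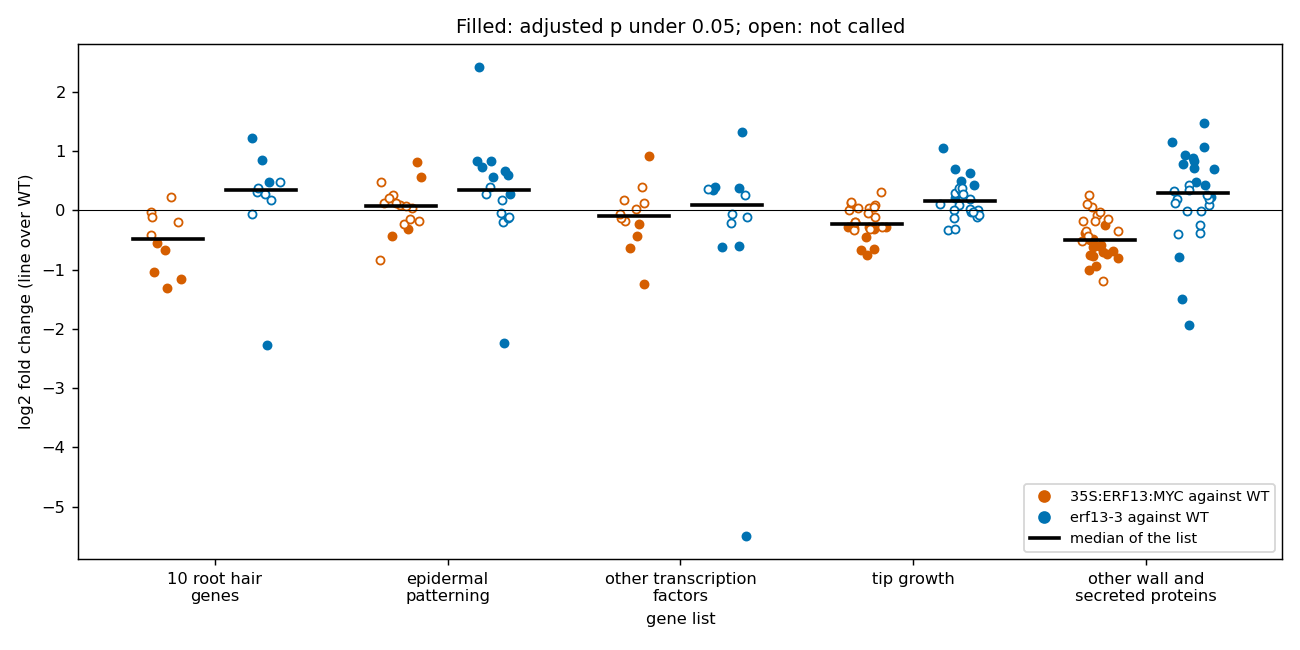
Log2 fold change over WT (vertical axis) of each tested gene of 5 lists (horizontal axis), in 35S:ERF13:MYC and erf13-3 roots; filled points have an adjusted p under 0.05 and black bars are list medians. The medians of the 10 root hair genes and of the other wall proteins lie at -0.48 and -0.49 in 35S:ERF13:MYC and at 0.34 and 0.29 in erf13-3, and the lowest point is AT2G14760, fitted on 1 count in erf13-3.

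Without 35S:ERF13:MYC replicate 2 the genes called in 35S:ERF13:MYC against WT dropped to 8 of the 28 wall proteins, 4 of the 24 tip growth genes and 2 of the 12 transcription factors, while all genes called dropped to 3903. Without WT replicate 2 they were 12, 5 and 3, where 4660 of 19895 genes tested were called. Without 35S:ERF13:MYC replicate 3 the tip growth genes called were 5 and the transcription factors 3, where 4497 of 19891 genes tested were. Epidermal patterning genes called in erf13-3 against WT were 5 without WT replicate 2, where 4066 of 19895 genes tested were called. They were 5 without erf13-3 replicate 2 as well, where 4260 of 19862 genes tested were. Those called in 35S:ERF13:MYC were 2 without WT replicate 2. With replicate 3 of WT and of erf13-3 left out, 20 wall proteins were called in 35S:ERF13:MYC, 19 of them lower, and 17 in erf13-3, 13 of them higher. Of 19825 genes tested, 3672 were then called lower in 35S:ERF13:MYC and 2754 higher in erf13-3. The calls of SCM, SCN1 and OBP4 in 35S:ERF13:MYC did not hold with limma on FPKM (adjusted p up to 0.069, 0.11 and 0.084). Those of TTG1 and EIL1 did not hold there either. With limma on log2(FPKM + 1), 4 epidermal patterning genes were called higher in 35S:ERF13:MYC and 0 lower, where 4076 and 2618 of all genes were. The call of AT1G68360 did not hold without WT replicate 2 (edgeR adjusted p = 0.052).

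The root hair element was also in the upstream windows of 4 of the 29 listed wall proteins (EXPA7, EXPA18, RHS13 and RHS18) and of MRH6 in the tip growth list, and in that of no gene of the epidermal patterning or transcription factor lists. Of 147 tested genes outside the 10 whose windows hold it, 16 were called higher (10.9%) and 41 lower (27.9%) in 35S:ERF13:MYC against WT, where 13.8% and 17.7% of all genes were. In erf13-3 against WT 28 were higher (19.0%) and 21 lower (14.3%), where 13.6% and 13.7% of all genes were. In erf13-3 against 35S:ERF13:MYC 49 were higher (33.3%) and 27 lower (18.4%), where 21.1% and 17.6% of all genes were.

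Likeness of pattern was measured as the root mean square difference of log2 CPM (counts scaled to depth), centred on each gene's mean, over the 9 libraries and 18520 genes with a mean of at least 1 FPKM. Nearest to PRP1 were LRL3 (0.08) and the aquaporin gene PIP2;4 (0.09), where PRP1's own deviation from its mean was 0.67. The nearest to PRP3 was MOP10, annotated as a proline-rich protein-like gene (0.07), followed by the kinase gene AT3G59350 (0.09). LRX1 had the proline-rich gene AT2G28440 (0.10) and AT4G30320 (0.11), and COW1 had the acyltransferase gene ATS1 (0.09) and COBL5 (0.09). RSL4 was nearest to AT3G54000 (0.09) and AT1G19450 (0.11), and RSL2 to the sulfotransferase gene ST2A (0.14) and AT2G19060 (0.20). For XTH26 the nearest were LHCB3 (0.17) and PSAD-1 (0.18), genes of the photosynthetic antenna and of photosystem I, the kind of gene summed above as shoot markers. GL2 (AT3G15640 and AT1G06930, 0.05 each), RHD6 (SEC15A and AT4G11630, 0.06 each) and RSL1 (AT4G12680 and PRR7, 0.10 and 0.11) deviated little themselves, by 0.15, 0.17 and 0.21. Among the 10 genes the nearest pair was PRP3 and LRX1 (0.18) and the farthest RSL2 and XTH26 (1.70), and RSL2 lay 0.91 or more from each of the other genes.

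In the authors' deposited tables of each line against WT, whose smallest log2 ratio is 1 in size, 2 of the 10 genes are listed for each line. The authors' deposited table for 35S:ERF13:MYC gives PRP1 a log2 ratio of -1.04 and XTH26 one of -1.21. The authors' deposited table for erf13-3 gives RSL2 a log2 ratio of -2.15 and XTH26 one of 1.36.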

How the data were processed

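RNA was measured in 9 root libraries, 3 per genotype, grouped by their titles. Per the labels' protocols, RNA was purified on columns, cDNA was made with random primers and sequencing was on an Illumina instrument; which aligner, counter, genome build and strandedness were used is not stated there. Per the file headers, the authors deposited an expected count and an FPKM value per gene and library; a gene not listed was taken as 0. In the authors' deposited comparison tables the units are log2 ratios, mean FPKM and a score from 0 to 1, called a probability, that is no p-value.

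After rounding, expected counts went into edgeR 4.0.16 (R 4.3.3): filterByExpr (minimum count 10), TMM scaling (factors 0.895 to 1.06) and a single quasi-likelihood fit of all 9 libraries, with 6 residual degrees of freedom. FPKM values carry no such scaling, so their ratios differ from the fitted folds. The SE of a log2 fold change is its size divided by the square root of the F statistic. Adjusted p-values cover all 19714 genes tested. Depth was nearly equal, at 12147128 to 12324144 expected counts, and its precision is set by the counts given beside scarce genes. No pair of libraries of the same genotype was a duplicate (chi-square per degree of freedom 2.31 or more), and pairs across genotypes were not compared. The fit was tested on simulated data. Alternatives were DESeq2 1.42.0, limma 3.58.1 on log2(FPKM + 1) and log2(FPKM + 0.1), DESeq2 size factors, other filters, a replicate block, only the 6 libraries compared, and each library left out. The labels do not say what a replicate number shares. Deviations from the genotype means correlated at 0.18 to 0.44 between same-numbered erf13-3 and WT libraries, and at -0.37 to 0.27 between different-numbered ones. These ranges overlap, so a pairing is not established, and the block is given only as an alternative fit. Same-numbered correlations with 35S:ERF13:MYC libraries ran from -0.26 to 0.15. The block was fitted over all 9 libraries. The members and lists were chosen with earlier results of these data known. The genes named from each list are the 3 with the smallest p among those called in each line; genes named only to complete a count, and those holding the element, were chosen after their values were seen. For each member the 2 nearest patterns are named.

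All 10 members and the genes of the lists were matched by identifier, and the deposited coordinates of 2547 genes all lay within the same gene on the same strand in TAIR10.1, 70.2% of them with identical ends. Upstream windows end at the base before the annotated start.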

Additional observations from a re-analysis of the deposited data

How the results depend on the processing

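Of 540 values of the 10 genes under the alternatives, 506 kept their direction and their side of the threshold, 20 passed it newly and 1 lost it (COW1 in erf13-3 against WT). The remaining 13, of GL2 in 35S:ERF13:MYC against WT, RSL1 in erf13-3 against both and RHD6 between the lines, changed direction without being called, and no called value changed direction. The values that passed newly belong to LRX1 in 35S:ERF13:MYC and to PRP1, PRP3 and RHD6 in erf13-3 against WT, so these 4 lie near the threshold. With limma on log2(FPKM + 1) and on log2(FPKM + 0.1), 7 members were called in erf13-3 against WT, 6 higher and 1 lower. Of the 19714 genes tested, 4670 and 4351 were then called higher and 1852 and 1793 lower, with the median gene at 0.13 and 0.15. In 35S:ERF13:MYC against WT 5 tip growth genes were called under both, where 6694 and 6178 of all genes were. With log2(FPKM + 0.1) 9 other wall proteins were called in 35S:ERF13:MYC against WT. Leaving out each library in turn gave 5 to 6, 3 to 6 and 7 members called in 35S:ERF13:MYC against WT, erf13-3 against WT and erf13-3 against 35S:ERF13:MYC, and 3903 to 6725, 4066 to 5441 and 6081 to 8692 of all genes. In 35S:ERF13:MYC against WT it gave 2 to 5 epidermal patterning genes, 2 to 6 other transcription factors, 4 to 12 tip growth genes and 8 to 19 other wall proteins. In erf13-3 against WT it gave 5 to 9 epidermal patterning genes. The cause of these moves was not tested. With the replicate number as a block, 6, 6 and 7 members and 6523, 5494 and 8008 of all genes were called in the same 3 comparisons. In erf13-3 against WT the block changed the call of PRP1, PRP3, CPL3 and RHD3, given above. It also changed that of LRL3, XTH14 (both then higher) and LRX2 (then lower), and of no other gene of the lists. Whether the numbers pair libraries is not established, so these block values are an alternative only. For LRX1 in 35S:ERF13:MYC against WT the block gave -0.40 (edgeR adjusted p = 0.044). DESeq2 called 5 members in 35S:ERF13:MYC and 5 in erf13-3 against WT, where 5778 and 5061 of 19714 genes tested were. Between the lines it called 7, where 7002 to 8272 of all genes were over the alternatives other than leaving out a single library. Depth limits RSL1, XTH26, TRY, HDG11 and AT2G14760, which rest on few counts.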
